A study of Mus musculus with 8 samples.

Results

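The comparison described here asked whether mice lacking SMS2 respond to dextran sulfate sodium (DSS) differently from wild-type (WT) mice. For each gene, the change with DSS in WT colon epithelial cells (WT DSS minus WT untreated) was subtracted from the change with DSS in knockout cells (KO DSS minus KO untreated). This difference of differences is called the interaction, and it is above 0 where the knockout value moved up more, or down less, than the WT value. It was formed for all 19505 genes that the array names with 1 symbol, and tested for the 13003 of them that were left after the lowest 33.3% by mean signal were removed. The cells came from C57BL/6J mice, either WT or with the SMS2 knockout, a deletion of Sgms2. Mice were untreated or drank water with 3.5% DSS for 2 days. The 4 groups, WT untreated, WT DSS, KO untreated and KO DSS, held 2 arrays each, 8 in all. The labels call the arrays of a group biological replicates. The sources used here do not state whether the deletion covers all tissues, which part of Sgms2 it removes, the age of the mice, or whether a replicate was 1 mouse or several.

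SMS2 moves a phosphocholine head group from phosphatidylcholine to ceramide and so makes sphingomyelin, mainly at the plasma membrane, and SMS1 does the same in the Golgi. Sphingomyelin packs with cholesterol in membranes, and ceramide and its product sphingosine 1-phosphate are signalling lipids. DSS damages the colon lining, and after a few days bacteria and immune cells enter the tissue, with loss of absorptive functions and a reaction of the underlying stroma.

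The arrays carried strong epithelial signal, with log2 signals of 16.31 to 16.93 for the adhesion gene Epcam and 17.48 to 17.84 for the keratin gene Krt8. They also carried transcripts of other cells, which moved with both factors and are given beside the results. Replicates differed by a median of 0.20 to 0.33 on the log2 scale, and by over 1 for 491 genes in WT DSS and 755 in KO DSS, against 121 and 130 in the untreated groups. In bulk samples, fewer cells of a type and less RNA per cell cannot be told apart. Genes of an exocrine pancreas list (16 tested) averaged 12.01 in WT DSS replicate 1, 8.25 in KO DSS replicate 1 and 7.23 to 7.62 in the other 6 arrays. Their median interaction was -1.93. The list also holds members that were bright in all 8 arrays, such as Zg16, which is in the goblet cell list too, and Sycn. The Y-linked transcripts Eif2s3y and Uty were bright in all 4 DSS arrays and at background in all 4 untreated arrays, in both genotypes alike. Their interactions were -0.33 ± 0.48 and -0.0043 ± 0.52. Both followed treatment in every array, as they would if treated and untreated mice differed in sex. A change with DSS, or its difference between genotypes, therefore cannot be told apart from one of sex. The words "with DSS" name the groups only, and the part of sex in other genes was not tested.

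The interaction passed for 10 of 13003 genes, 6 higher and 4 lower in the knockout, by limma at an adjusted p under 0.05 (0.0769% of the genes tested). With 1 array left out in turn the count ran from 5 to 26, with 5 to 8 higher and 0 to 20 lower genes. It was 5 without either WT untreated array or WT DSS replicate 1, 26 without WT DSS replicate 2 and 18 without KO DSS replicate 2. The 6 higher genes are the steroid dehydrogenases Hsd3b3 and Hsd3b2, the esterase Aadac, the aldo-keto reductase Akr1c19, the matricellular gene Ccn3 and Zan. The 4 lower genes are the lipid droplet gene Hsd17b13, Arhgap6, the chemokine Ccl5 and the peptidase Mme. In 9 of the 10, the group apart from the other 3 was WT DSS, and in Mme it was KO untreated. The change with DSS passed in WT for 9 of the 10 genes (4.04% of all genes passed there), and in the knockout for Mme alone (0.931% of all genes). The genotypes differed with DSS in the same 9 genes (0.354% of all genes) and without DSS in Mme (0.392% of all genes). These 4 pairwise comparisons use the same arrays as the interaction, so they describe its shape and are no further test of it. In all 10 genes every difference between a DSS and an untreated array in the knockout lay on 1 side of every such difference in WT, which was true of 17.3% of all genes tested (8.35% with the knockout higher and 8.94% with it lower).

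**Figure D1:**
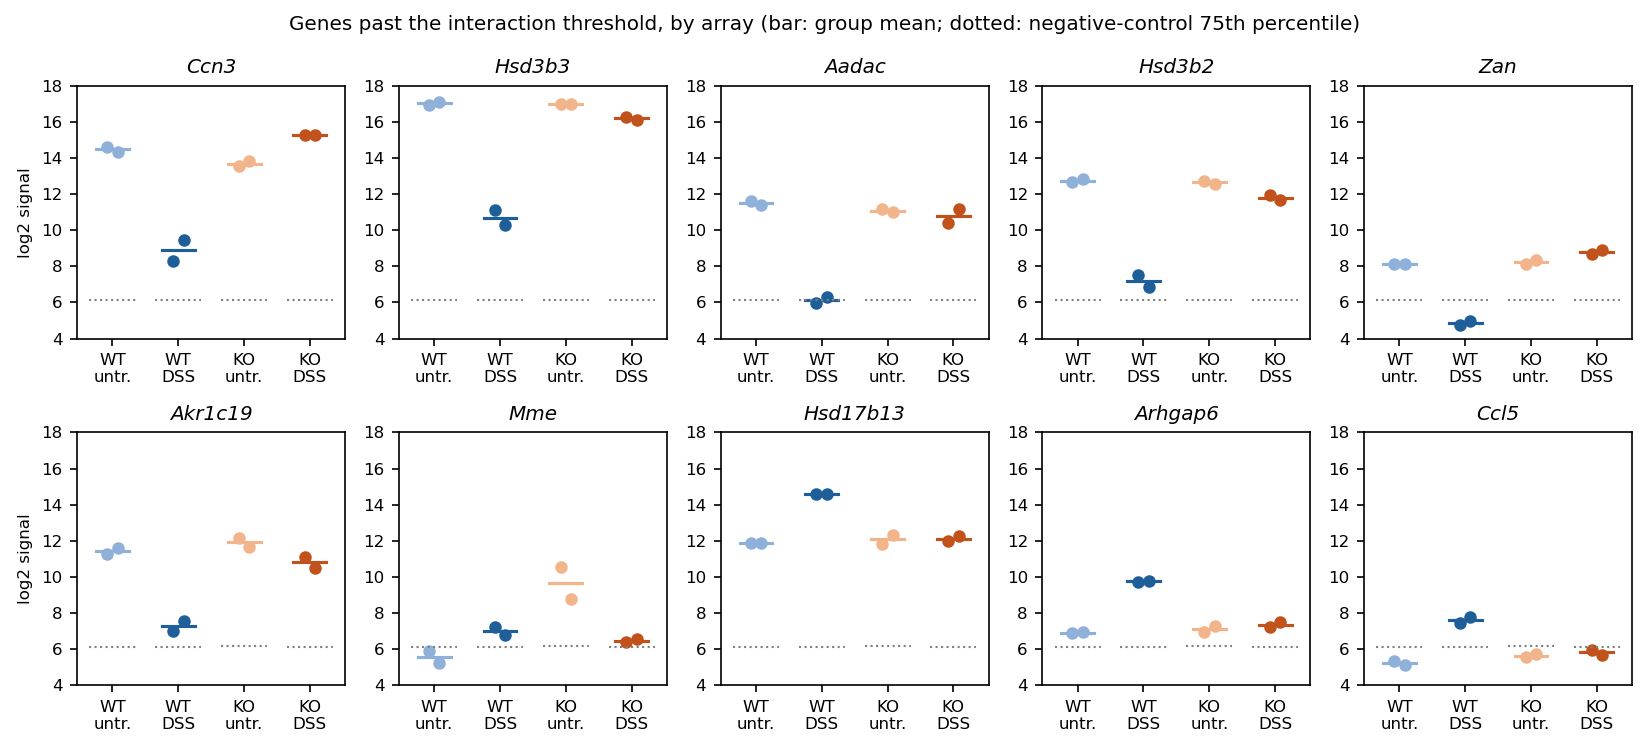
Log2 signal (vertical axis) of the 10 genes past the interaction threshold, with 1 point for each array and a bar at each group mean. The dotted line is the background level, a 75th percentile over negative-control rows; in 9 of the 10 panels the WT DSS points stand apart, and in the Mme panel the KO untreated points do.

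Hsd3b3 and Hsd3b2 encode 3-beta-hydroxysteroid dehydrogenases, which convert steroid hormone precursors, and they lie next to each other in the genome. The proximal promoters of these genes, of Aadac and of Hsd17b13 are shown because the first 3 genes moved together and the last one moved in the opposite direction. Each window runs from 250 bases before to 50 bases after a RefSeq transcription start, in the GRCm38.p6 assembly, 5′ to 3′ on the strand of the gene. Hsd3b3 lies at chr3:98763079-98763378 (minus strand, the first of 2 annotated starts), Hsd3b2 at chr3:98724494-98724793 (minus), Aadac at chr3:60031538-60031837 (plus) and Hsd17b13 at chr5:103977339-103977638 (minus). Capitals mark a match to the nuclear receptor core AGGTCA on either strand.
Hsd3b3: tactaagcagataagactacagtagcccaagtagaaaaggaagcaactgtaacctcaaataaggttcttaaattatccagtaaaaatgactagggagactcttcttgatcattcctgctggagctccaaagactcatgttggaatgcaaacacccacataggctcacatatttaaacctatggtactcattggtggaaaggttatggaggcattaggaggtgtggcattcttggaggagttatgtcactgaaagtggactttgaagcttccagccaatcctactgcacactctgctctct
Hsd3b2: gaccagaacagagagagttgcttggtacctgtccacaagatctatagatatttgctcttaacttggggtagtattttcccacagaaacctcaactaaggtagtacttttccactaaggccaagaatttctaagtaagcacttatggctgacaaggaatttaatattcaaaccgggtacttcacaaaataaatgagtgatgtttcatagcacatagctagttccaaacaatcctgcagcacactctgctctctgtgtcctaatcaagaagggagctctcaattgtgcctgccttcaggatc
Aadac: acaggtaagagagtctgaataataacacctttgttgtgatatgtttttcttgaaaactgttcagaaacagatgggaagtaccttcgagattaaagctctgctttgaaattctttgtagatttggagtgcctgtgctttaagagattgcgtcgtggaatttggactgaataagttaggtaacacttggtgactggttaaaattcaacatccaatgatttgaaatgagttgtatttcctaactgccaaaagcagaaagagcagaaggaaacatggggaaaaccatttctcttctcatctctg
Hsd17b13: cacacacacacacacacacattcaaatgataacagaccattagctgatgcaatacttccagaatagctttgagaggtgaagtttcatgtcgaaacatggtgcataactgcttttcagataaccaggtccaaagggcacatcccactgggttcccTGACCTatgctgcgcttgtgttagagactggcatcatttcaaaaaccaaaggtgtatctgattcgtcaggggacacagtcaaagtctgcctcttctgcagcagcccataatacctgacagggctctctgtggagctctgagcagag
A match to AGGTCA was found in the Hsd17b13 window and in no window of the 7 other passing genes with an entry, against 16.3% of all 32851 RefSeq promoter windows. Ccn3 and Ccl5 had no entry in the promoter table. The HNF1 core GTTAAT (7.1% of all windows) and the CDX core TTTATG (11.9%) were in no window of the 8 genes. The NF-kB core GGGACT (18.7%) and the AP-1 site TGANTCA (7.81%) were in windows of Mme alone. All motifs were searched on both strands as spelled, and a window without a match says only that these letters are not in it. The Hsd3b3 and Hsd3b2 windows were identical at 46.7% of aligned positions, within the 41.2% to 48.6% of the other windows aligned with Hsd3b2.

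The steroid dehydrogenase Hsd3b3 kept more of its signal with DSS in the knockout than in WT, and was above background in every group. Its log2 signal was 16.95 and 17.12 in untreated WT, 11.13 and 10.29 in WT DSS, 17.02 and 17.00 in the untreated knockout and 16.29 and 16.12 in the knockout with DSS. The WT DSS arrays were far below the other 6, which lay close together. Hsd3b3 was lower with DSS by 6.33 in WT (-6.33 ± 0.28, adjusted p = 6.84e-07), against -0.80 ± 0.28 in the knockout (adjusted p = 0.332). The interaction was 5.53 ± 0.40 (adjusted p = 0.00013). Its neighbour Hsd3b2 had signals of 12.67 and 12.84, 7.52 and 6.84, 12.74 and 12.57, and 11.93 and 11.66 in the same order of groups. Here too the WT DSS arrays did not overlap with any other group, and the interaction was 4.71 ± 0.38 (adjusted p = 0.0002). The 2 genes are close relatives, and whether probes of 1 also read the other cannot be told from the deposited values. Hsd3b6, a further member of the family, had an interaction of 0.90 ± 0.59 (adjusted p = 0.983), with means of 4.85 in WT DSS and 5.95 in KO DSS, both at background.

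Aadac, an esterase of the endoplasmic reticulum that acts on lipids and drugs, showed the same form. Its signal was 11.61 and 11.41 in untreated WT, 5.97 and 6.31 in WT DSS, 11.18 and 10.99 in the untreated knockout and 10.43 and 11.19 in the knockout with DSS. The WT DSS values lay close to the background level, and the other groups overlapped with each other in part. The interaction was 5.10 ± 0.40 (adjusted p = 0.0002). Akr1c19, a member of the aldo-keto reductases that reduce steroids and other carbonyl compounds, had signals of 11.24 and 11.61, 7.01 and 7.54, 12.17 and 11.68, and 11.10 and 10.51 in the same order. It was lower with DSS by 4.15 in WT (-4.15 ± 0.30, adjusted p = 2.86e-05), and its change in the knockout was -1.12 ± 0.30 (adjusted p = 0.153). The interaction of Akr1c19 was 3.03 ± 0.42 (adjusted p = 0.0262), and it did not pass with any of 5 of the 8 arrays left out (adjusted p between 0.0561 and 0.241), both WT untreated arrays among them. Setting array medians equal also ended this call (adjusted p = 0.0556).

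Ccn3, which encodes a secreted matricellular protein of the CCN family, had the largest interaction of the genes tested, 7.19 ± 0.48 (adjusted p = 0.000107). Its signal was 14.62 and 14.36 in untreated WT, 8.29 and 9.48 after DSS in WT, 13.54 and 13.83 in the untreated knockout and 15.30 and 15.26 in the knockout with DSS. The WT DSS arrays were low and the KO DSS arrays the highest of all. The gene moved in opposite directions by its means: the change was -5.60 ± 0.34 in WT (adjusted p = 6.3e-06) and 1.59 ± 0.34 in the knockout, which did not pass (adjusted p = 0.0562). Zan, which encodes zonadhesin, a protein known from the sperm head, had signals of 8.13 and 8.12 in untreated WT, 4.72 and 4.95 in WT DSS, 8.15 and 8.36 in the untreated knockout and 8.67 and 8.90 in the knockout with DSS. It was at background in WT DSS alone, so its interaction of 3.82 ± 0.32 (adjusted p = 0.000272) is at least 2.54 against the background level. With DSS the knockout signal of Zan was at least 6.35-fold that of WT.

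Hsd17b13, a lipid droplet enzyme best known from liver, rose with DSS in WT alone. Its signal was 11.85 and 11.85 in untreated WT, 14.60 and 14.59 in WT DSS, 11.83 and 12.33 in the untreated knockout and 11.99 and 12.25 in the knockout with DSS. The change was 2.75 ± 0.24 in WT (adjusted p = 8.59e-05) and 0.04 ± 0.24 in the knockout (adjusted p = 0.989), an interaction of -2.71 ± 0.35 (adjusted p = 0.0126). Arhgap6, which encodes a GTPase-activating protein, had signals of 6.88 and 6.92, 9.70 and 9.78, 6.95 and 7.24, and 7.21 and 7.47 in the same order. The WT DSS arrays were the only high ones in both genes. The interaction of Arhgap6 was -2.60 ± 0.32 (adjusted p = 0.0119). Neither gene passed without WT untreated replicate 1 or 2, WT DSS replicate 1 or KO untreated replicate 2, with adjusted p between 0.0612 and 0.114 and interactions of -2.71 to -2.45.

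Ccl5, a chemokine that draws T cells and monocytes, was above background in WT DSS alone. Its signal was 7.42 and 7.77 there, against 5.31 and 5.13 in untreated WT, 5.54 and 5.72 in the untreated knockout and 5.93 and 5.68 in the knockout with DSS. The WT DSS signal was at least 2.75-fold that of untreated WT and at least 2.76-fold that of the knockout with DSS. The interaction of -2.20 ± 0.34 (adjusted p = 0.0489) has no bound, since 3 of its 4 groups were at background. Ccl5 did not pass with any 1 of the 8 arrays left out (adjusted p between 0.0543 and 0.35, interactions of -2.37 to -2.02), nor with the replicate number as a block (adjusted p = 0.0834). Mme, which encodes neprilysin, a peptidase of the cell surface that cleaves small signalling peptides, had a different form. Its signal was 5.91 and 5.20 in untreated WT, at background, 7.21 and 6.76 in WT DSS, 10.57 and 8.76 in the untreated knockout and 6.38 and 6.55 in the knockout with DSS. The untreated knockout was high, at least 11.5-fold above untreated WT, and its 2 arrays lay far apart. Mme was lower with DSS by 3.19 in the knockout (-3.19 ± 0.47, adjusted p = 0.0129), and its change in WT was 1.43 ± 0.47 (adjusted p = 0.144). The interaction was -4.62 ± 0.67 (adjusted p = 0.0324), at least 4.04 in size against background. It did not pass without 5 of the 8 arrays in turn (adjusted p between 0.064 and 0.241), nor with the pair of arrays of high pancreatic signal left out (adjusted p = 0.062).

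Of these genes, Ccn3, Hsd3b3, Aadac, Hsd3b2 and Zan, passed with each array left out, and also with both arrays of pancreatic signal left out and with the means of the fibroblast, smooth muscle or pancreas lists as covariates.

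**Figure D2:**
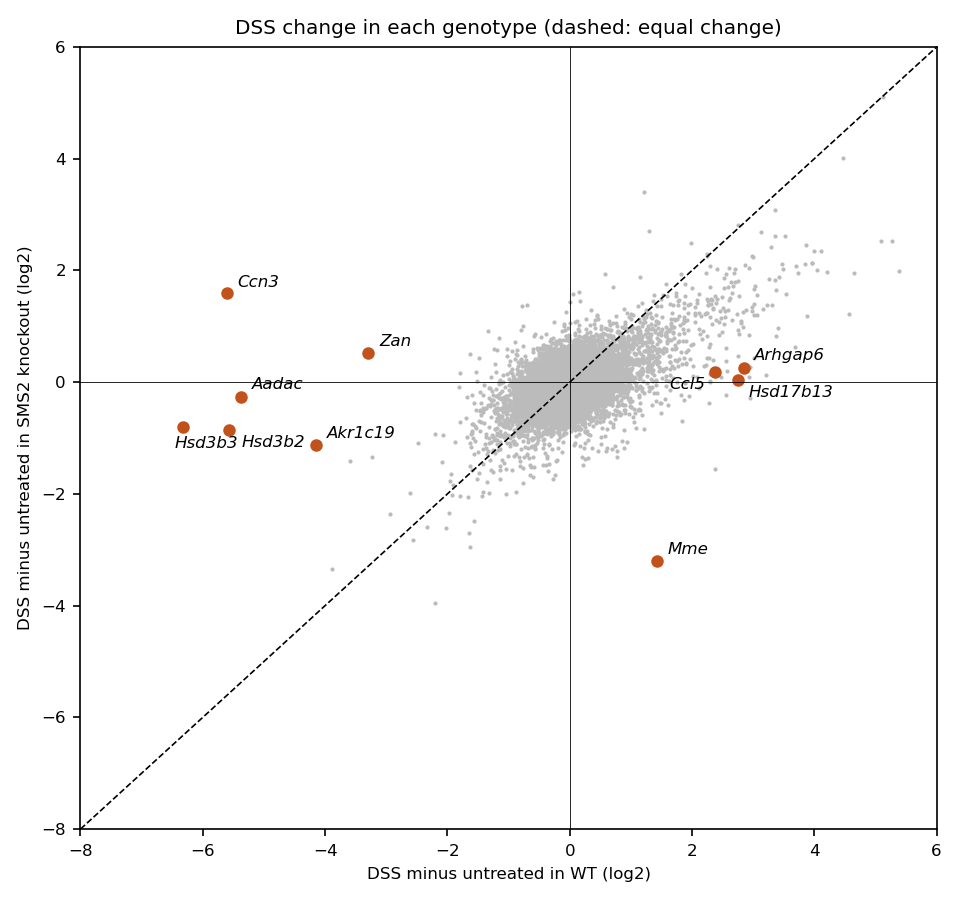
Change with DSS (log2) in WT on the horizontal axis and in the SMS2 knockout on the vertical axis, for the 13003 genes tested, 1 grey point each. The 10 genes past the interaction threshold are in red and named; 9 have a knockout change between -1.12 and 1.59, and Mme lies at 1.43 and -3.19.

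Over all genes tested, the 10 that passed included, large interactions were more often below 0. An interaction of at least 2 was found for 12 genes, the 6 that passed above 0 among them, and of -2 or below for 43, the 4 that passed below 0 among them. An unadjusted p under 0.05 was found for 245 genes above 0 (1.88%) and 464 below 0 (3.57%). Among the 43, WT DSS stood apart as the high group in 26 and WT untreated as the low group in 6, and in 9 no group stood apart. Among the 12, WT DSS was the low group in 7, the 6 that passed and Rsl1, KO untreated the low group in 3 and WT untreated the high group in 2. These groupings use the values that set the interaction and are a description. The 26 include the pancreatic genes Amy2a5 (-3.40) and Cpa1 (-2.54), whose high WT DSS mean came from replicate 1 alone. The signals of the 2 WT DSS arrays were 15.17 and 5.55 for Amy2a5, and 12.55 and 5.04 for Cpa1. How many of the 43 owe their size to that array was not counted. Only 1 of the 16 tested pancreas genes was among the 464.

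Among genes with an unadjusted p under 0.01 that did not pass, the largest interactions were those of Hoxd13, Igsf23, Dcn and Tmem116 below 0 and of Xlr3b and Rsl1 above 0. The homeobox gene Hoxd13, which marks the posterior end of the gut, had signals of 9.44 and 8.98 in untreated WT, 11.98 and 12.34 in WT DSS, 9.21 and 9.30 in the untreated knockout and 7.78 and 10.17 in the knockout with DSS. It was high in WT DSS, and its KO DSS arrays lay far apart. The interaction was -3.24 ± 0.79 (adjusted p = 0.323), with -4.43 without KO DSS replicate 2 (adjusted p = 0.000887) and -2.04 without KO DSS replicate 1 (adjusted p = 0.101). Igsf23, of the immunoglobulin superfamily, had signals of 6.88 and 6.54, 9.53 and 9.75, 5.82 and 6.56, and 5.89 and 6.67 in the same order. Again WT DSS alone was high, with an interaction of -2.84 ± 0.46 (adjusted p = 0.0622), the second gene outside the threshold after Xpnpep2 (-2.21, adjusted p = 0.0564). The gene just inside was Ccl5 (-2.20, adjusted p = 0.0489). Tmem116 had an interaction of -2.64 ± 0.47 (adjusted p = 0.106). Xlr3b, at 2.14 ± 0.50 (adjusted p = 0.298), was low in the untreated knockout (6.46 and 6.07) against 6.85 to 8.19 in the other 6 arrays. The zinc finger gene Rsl1, at 2.13 ± 0.47 (adjusted p = 0.255), was low in WT DSS (6.16 and 5.29) against 6.53 to 7.61 in the other arrays.

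The target of the knockout and its relatives did not pass. Sgms2 had signals of 10.79 and 10.76 in untreated WT, 11.27 and 10.90 in WT DSS, 7.30 and 7.33 in the untreated knockout and 7.35 and 6.47 in the knockout with DSS. It was low in every knockout array, and its interaction was -0.72 ± 0.41 (adjusted p = 0.963). The interactions were -0.62 ± 0.33 (adjusted p = 0.943) for Sgms1, the second sphingomyelin synthase, and 0.42 ± 0.36 (adjusted p = 0.992) for Samd8, which makes a related lipid. None of the 33 tested genes of sphingolipid metabolism passed by limma, and 2 had an unadjusted p under 0.05 (5.45% of all genes). These were Ugcg, the glucosylceramide synthase (-0.92 ± 0.33, adjusted p = 0.746), and the ceramidase Acer1 (1.03 ± 0.44, adjusted p = 0.883). The list's median interaction was 0.02, beside -0.01 over all genes tested.

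Of 40 genes of steroid, drug and xenobiotic metabolism, 4 passed above 0 (Hsd3b3, Hsd3b2, Aadac and Akr1c19) and 1 below (Hsd17b13), against 0.0461% and 0.0308% of all genes. The list was drawn up with these genes known from earlier results. The list's median was -0.09, close to that of all genes. In the knockout the change with DSS passed below 0 for 7 of the 40, and in WT for 11 (0.392% and 1.12% of all genes).

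Genes of cholesterol synthesis made the list with the highest median interaction, 0.91. None of 15 passed by limma, and 8 had an unadjusted p under 0.05, all above 0 (1.88% of all genes). With DSS the means of 14 of 15 were below the untreated level in WT, and the means of 13 of 15 were above it in the knockout. The list's mean was 12.16 and 12.37 in untreated WT, 11.85 and 11.71 in WT DSS, 11.81 and 11.88 in the untreated knockout and 11.98 and 12.23 in the knockout with DSS. Untreated WT and knockout did not overlap on this measure, and the untreated knockout lay where WT with DSS did. Fdps, the farnesyl diphosphate synthase, had signals of 9.68 and 9.82, 9.08 and 8.35, 9.22 and 9.53, and 9.97 and 9.71 in the same order of groups. Its interaction was 1.49 ± 0.39 (adjusted p = 0.37), with changes of -1.03 ± 0.28 in WT and 0.46 ± 0.28 in the knockout. Mvd and Mvk, enzymes of the mevalonate steps before it, had interactions of 1.44 ± 0.40 (adjusted p = 0.412) and 1.12 ± 0.36 (adjusted p = 0.565). Srebf2, the transcription factor of the pathway, was at 0.38, and the membership ranged from -0.17 to 1.49.

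**Figure D3:**
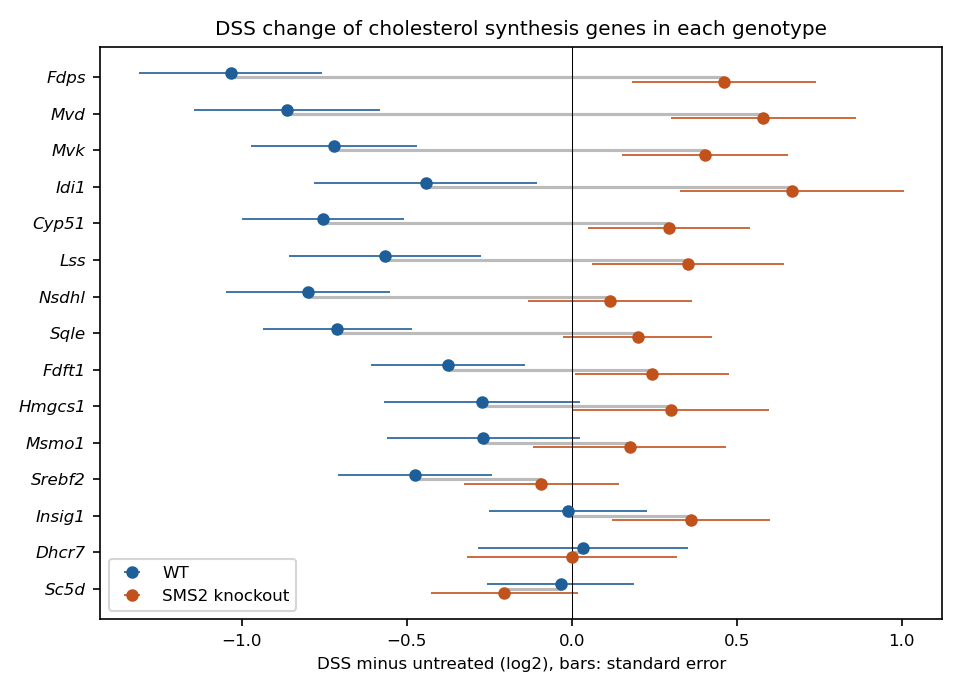
Change with DSS (log2, horizontal axis) of the 15 cholesterol synthesis genes in WT (blue) and SMS2 knockout (orange), with bars of 1 standard error from limma. The WT points lie below 0 for 14 of 15 genes and the knockout points above 0 for 13 of 15, and no gene passed the test of the difference after adjustment.

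Genes of stroma and vessels had negative list medians. Of 22 fibroblast and matrix genes none passed by limma, 8 had an unadjusted p under 0.05, all below 0 (3.57% of all genes), and the median was -0.89. These genes rose with DSS in both genotypes: 16 of 22 passed in WT and 10 of 22 in the knockout (2.91% and 0.538% of all genes). The proteoglycan Dcn had signals of 11.38 and 12.17 in untreated WT, 15.89 and 16.95 in WT DSS, 14.13 and 13.75 in the untreated knockout and 16.03 and 15.74 in the knockout with DSS. The 2 DSS groups overlapped for Dcn and the untreated groups did not, and its interaction was -2.70 ± 0.52 (adjusted p = 0.149). It was -3.37 with both arrays of pancreatic signal left out, and -1.95 (adjusted p = 0.261) with the fibroblast list, which holds Dcn, as a covariate. Sparc, a collagen-binding matrix protein, and the filament protein gene Vim had interactions of -1.93 ± 0.37 (adjusted p = 0.149) and -1.81 ± 0.39 (adjusted p = 0.249). The list's mean was 7.60 and 7.87 in untreated WT, 8.89 and 8.67 in the untreated knockout, 10.01 and 10.46 in WT DSS and 10.86 and 9.89 in the knockout with DSS. The untreated groups thus stood apart in level while the DSS groups overlapped.

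Other stromal lists also lay below 0. Of 19 genes of stromal WNT and BMP signalling, 6 had an unadjusted p under 0.05 below 0 (3.57% of all genes) and 1 above (1.88%), with a median of -0.87. Igfbp7, which binds insulin-like growth factors, was at -1.71 ± 0.42 (adjusted p = 0.338), and the growth factors Bmp4 and Bmp5 at -1.53 ± 0.41 (adjusted p = 0.377) and -1.83 ± 0.50 (adjusted p = 0.398). Of 15 endothelial genes 5 had an unadjusted p under 0.05, all below 0 (3.57% of all genes), with a median of -0.61. Plvap, which forms the diaphragms of vessel pores, had signals of 7.39 and 7.50, 9.88 and 9.97, 8.98 and 8.90, and 10.08 and 10.09, and an interaction of -1.33 ± 0.30 (adjusted p = 0.284). Among 16 smooth muscle genes all 16 were below 0 (6702 of 13003 over all genes), and the median was -0.77. An unadjusted p under 0.05 was found for 2 of them (Pln and Smtn, against 3.57% of all genes). The mean of that list was 9.43 and 10.25 in untreated WT, 10.80 and 10.24 in WT DSS, 11.54 and 11.77 in the untreated knockout and 12.52 and 10.70 in the knockout with DSS. No gene of these 3 lists passed by limma. The part of stroma and muscle in the interaction of other genes was not tested. The covariate fits cannot decide it, since their slope came only from differences between replicates of a group.

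**Figure D4:**
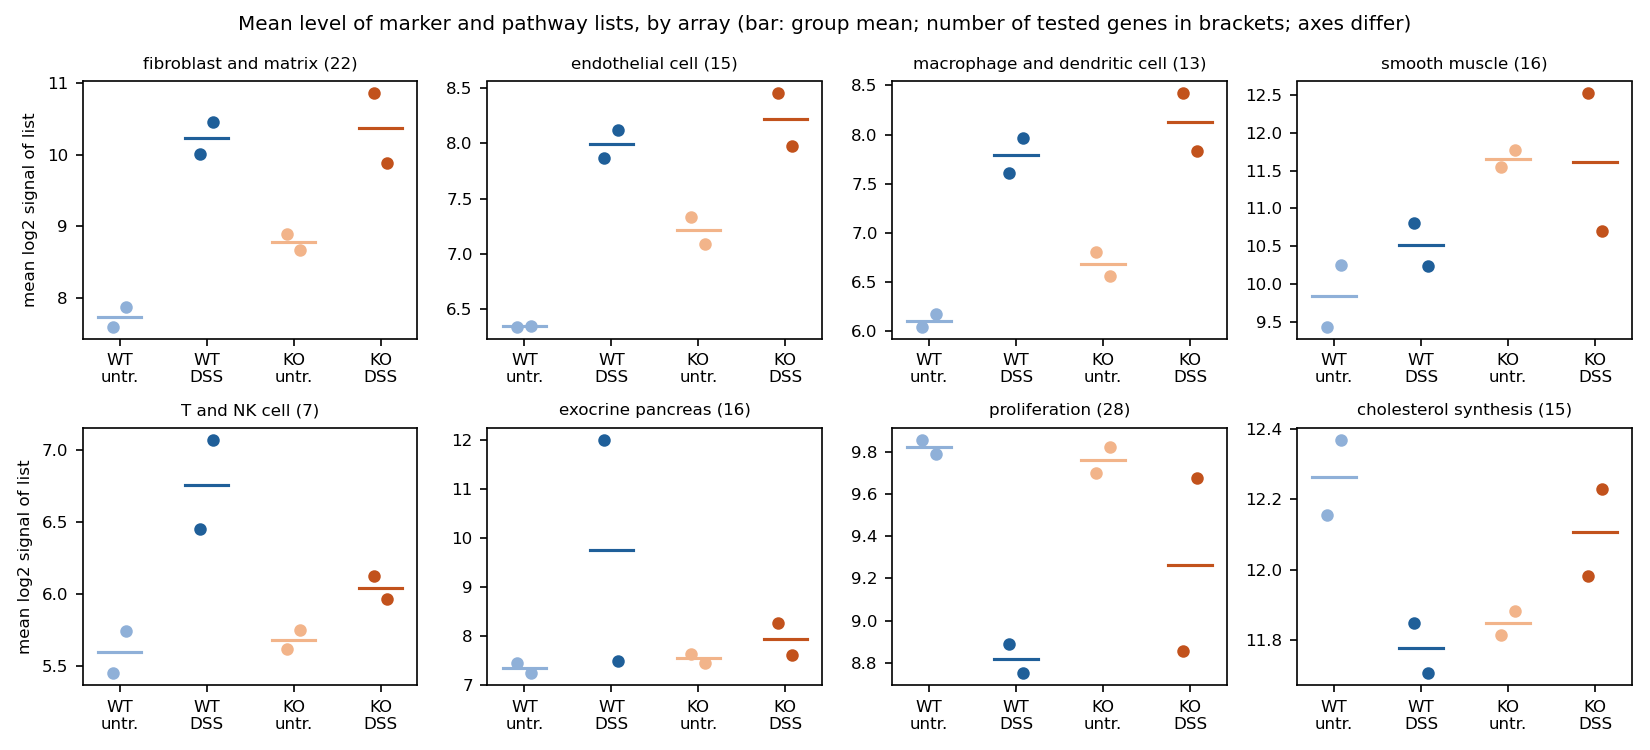
Mean log2 signal (vertical axis, scales differ) of 8 gene lists in each array, with a bar at each group mean and the number of tested genes in brackets. The fibroblast list runs from 7.60 in untreated WT to 10.86 in KO DSS, and the pancreas list is high in WT DSS replicate 1 at 12.01.

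Of the immune lists, those of interferon, NF-kB and T cell genes also lay mostly below 0. Of 27 interferon and antigen presentation genes 25 were below 0 (6702 of 13003 over all genes), with a median of -0.54. Of the 27, 7 had an unadjusted p under 0.05, all below 0 (3.57% of all genes), and none passed by limma. Gbp2, an interferon-induced GTPase, had signals of 7.05 and 7.15 in untreated WT, 9.03 and 9.32 in WT DSS, 7.48 and 7.49 in the untreated knockout and 7.72 and 7.45 in the knockout with DSS. It was high in WT DSS alone, with an interaction of -1.97 ± 0.32 (adjusted p = 0.0705). The interaction of Gbp2 was -2.25 with both arrays of pancreatic signal left out. With the fibroblast list as a covariate it was -1.68 (adjusted p = 0.169). The MHC class II genes H2-Aa and H2-DMb1 were at -1.62 ± 0.50 (adjusted p = 0.521) and -1.06 ± 0.36 (adjusted p = 0.69). In WT 9 of the 27 genes rose with DSS (2.91% of all genes), and in the knockout none did by limma.

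Of 28 NF-kB targets, cytokines and chemokines, 7 had an unadjusted p under 0.05, all below 0 (3.57% of all genes), and Ccl5 alone of these 7 passed, with a median of -0.50. Il33, an alarm cytokine of epithelium and stroma, had signals of 6.49 and 6.24, 7.73 and 7.75, 6.49 and 6.50, and 6.30 and 6.75. Only its WT DSS arrays were high, with an interaction of -1.34 ± 0.34 (adjusted p = 0.347). The stromal chemokine Cxcl12 was at -1.72 ± 0.43 (adjusted p = 0.345). Of the 14 T and NK cell genes on the array 8, among them Cd3d, Cd8a and Cd8b1, were at background in all 8 arrays. The 7 tested ones were all below 0 (6702 of 13003 over all genes), with a median of -0.59. Their mean was 6.45 and 7.07 in WT DSS, 6.12 and 5.96 in KO DSS and 5.45 to 5.75 in the untreated arrays. The granzyme genes Gzma and Gzmb of cytotoxic cells, at -1.91 ± 0.57 (adjusted p = 0.49) and -1.43 ± 0.48 (adjusted p = 0.659), were at background in KO DSS and above it in WT DSS. The part of these cells in the Ccl5 result was not tested. Of 13 macrophage and dendritic cell genes 8 were below 0 (6702 of 13003 over all genes). In 1 of the 13 the unadjusted p was under 0.05 (3.57% of all genes below 0). This was Lyz2 (-1.35 ± 0.60, adjusted p = 0.904), with a median of -0.25 for the list. The tested B and plasma cell, neutrophil and adipocyte genes numbered 4, 3 and 4, with 2, 1 and 2 below 0. Among them Fabp4 alone had an unadjusted p under 0.05 (-2.08 ± 0.44, adjusted p = 0.249), against 3.57% of all genes below 0. Adipoq and Plin1 were at background in all arrays.

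The immediate early genes, which are switched on within minutes of a stimulus, were below 0 in 19 of 19 (6702 of 13003 over all genes). They lay between -0.97 and -0.14, with a median of -0.55. Members of a list share the same 8 arrays, so such counts of signs are a description. None passed by limma, and 2 had an unadjusted p under 0.05 (3.57% of all genes below 0). These were Fosb (-0.83 ± 0.35, adjusted p = 0.881) and Nr4a1 (-0.79 ± 0.35, adjusted p = 0.899). The list's mean was 14.74 and 14.78 in WT DSS, 14.10 and 14.13 in KO DSS and 14.13 to 14.48 in the untreated arrays. The WT DSS arrays were the highest and the groups without DSS overlapped. Of 14 clock and clock output genes 11 were below 0 (6702 of 13003 over all genes), 4 with an unadjusted p under 0.05 (3.57% of all genes). The clock gene Per1 had signals of 8.36 and 8.33 in untreated WT, 8.47 and 8.83 in WT DSS, 8.70 and 8.61 in the untreated knockout and 7.49 and 7.73 in the knockout with DSS. Per1 was low in KO DSS alone (-1.35 ± 0.33, adjusted p = 0.323), while the output gene Dbp, at -1.57 ± 0.41 (adjusted p = 0.367), was low in untreated WT (mean 9.31, against 10.40 to 11.86 in the single arrays of the other groups).

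Proliferation genes had a median interaction of 0.50, with 23 of 28 above 0 (6301 of 13003 over all genes). None passed by limma and 3 had an unadjusted p under 0.05, all above 0 (1.88% of all genes). Hjurp, which loads the centromere histone, was highest in untreated WT (11.72 and 11.79), at 10.80 and 10.91 in WT DSS, 10.22 and 10.18 in the untreated knockout and 10.88 and 10.94 in the knockout with DSS. It had opposite changes by its means, with an interaction of 1.61 ± 0.30 (adjusted p = 0.145). The spindle checkpoint gene Bub1b and the cyclin gene Ccnb2 were at 1.34 ± 0.37 (adjusted p = 0.418) and 0.89 ± 0.33 (adjusted p = 0.77). With DSS, 10 of the 28 genes fell in WT (1.12% of all genes) and none passed in the knockout by limma. The mean of the list was 8.86 and 9.68 in KO DSS, 8.89 and 8.75 in WT DSS and 9.70 to 9.86 in the untreated arrays. The first KO DSS array thus lay with WT DSS and the second near the untreated arrays.

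Of 29 absorptive colonocyte genes 6 were below 0 and 1 above at an unadjusted p under 0.05 (3.57% and 1.88% of all genes), and Mme alone of the 6 passed. The sulfate transporter Slc13a1 had signals of 12.48 and 12.23 in untreated WT, 9.80 and 10.50 in WT DSS, 13.18 and 12.68 in the untreated knockout and 8.50 and 9.45 in the knockout with DSS. It was lower with DSS in both genotypes and more so by its mean in the knockout (-1.75 ± 0.49, adjusted p = 0.439). The water channel Aqp4 went the other way, with means of 15.26 and 14.39 in WT and 15.27 and 15.76 in the knockout, without and with DSS, and an interaction of 1.36 ± 0.37 (adjusted p = 0.398). Among 8 bile acid genes Fabp6, the ileal bile acid binding protein, alone had an unadjusted p under 0.05, above 0 (1.88% of all genes). Its interaction was 1.91 ± 0.56 (adjusted p = 0.49). Fabp6 signals were 9.86 and 9.42 in untreated WT and 5.87 and 6.93 in WT DSS. They were 7.50 and 8.51 in the untreated knockout and 6.85 and 6.49 in the knockout with DSS. The gene was lower with DSS in both genotypes by its means, and untreated WT was the high group. No gene of the goblet cell, metallothionein or acute phase lists had an unadjusted p under 0.05, and the goblet cell gene Ang4, singled out after its values were seen, had an interaction of -3.93 ± 2.12 (adjusted p = 0.95) with 16.83 and 11.74 in the 2 WT DSS arrays. Medians of the stem cell, enteroendocrine and tuft cell, unfolded protein response, fatty acid oxidation and tight junction lists lay between -0.25 and 0.0047, and that of the enteric neuron and glia list was 0.10. None of their members passed by limma, but each list held at least 1 at an unadjusted p under 0.05. Those above 0 (1.88% of all genes) were Znrf3 (0.83), Dclk1 (0.88), Pdia6 (0.83), Ceacam12 (2.19) and S100b (0.80). S100b was at background in all arrays and Ceacam12 in both DSS groups. Those below 0 (3.57%) were Chga (-0.76), Pdk4 (-1.09), Igsf23 and Cd36 (-2.58 ± 0.50, adjusted p = 0.149). Cd36 was at background in untreated WT, which bounds its interaction at -1.43.

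Homeobox genes that mark position along the gut were split. Of 18, Hoxd13 and Hoxd11 had an unadjusted p under 0.05 below 0 and Cdx1 above (3.57% and 1.88% of all genes), and the median was 0.01. Hoxd11 had signals of 7.55 and 7.25, 9.97 and 9.40, 7.87 and 7.04, and 7.00 and 7.95 in the same order of groups, with an interaction of -2.27 ± 0.52 (adjusted p = 0.284). Hoxd13 and Hoxd11 were high in WT DSS, while Hoxd12, which lies between them, had an interaction of -0.22 and Hoxd10 was at background in all arrays. Hoxb13, the most posterior gene of its cluster, did not show this, with 11.77 and 11.52 in WT DSS and 10.17 and 12.39 in KO DSS (interaction -0.34 ± 0.77, adjusted p = 0.998).

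**Figure D5:**
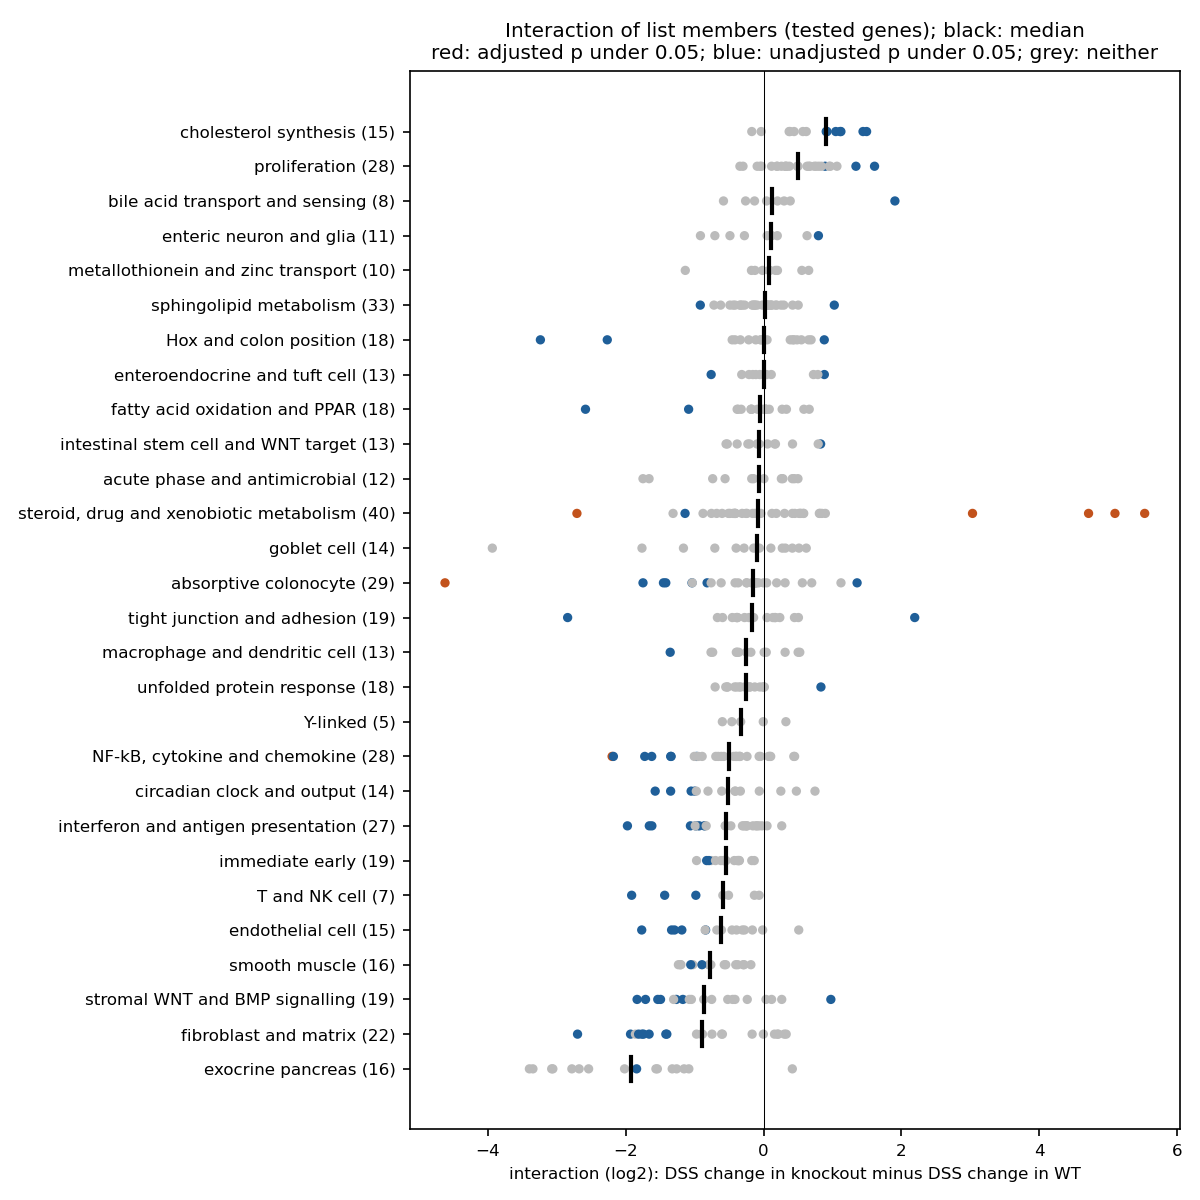
Interaction (log2, horizontal axis) of each tested member of the lists with at least 5 tested genes, 1 point each, with the list median as a black bar. Red points passed at an adjusted p under 0.05, and blue points had an unadjusted p under 0.05. Cholesterol synthesis has the highest median (0.91). The exocrine pancreas list, high in WT DSS replicate 1, has the lowest (-1.93), and the fibroblast list has one of -0.89.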

How the data were processed

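RNA of 8 samples was hybridised to 1 Affymetrix array each after labelling with the WT PLUS kit, per the labels' protocols. The authors deposited log2 signals, made with Affymetrix Expression Console, per the submitters' processing notes; its version, background correction, normalization and genome build: not given in the sources used here. Of 28846 rows, 6640 were control rows and 2634 had no gene symbol. The 19572 others gave 19505 genes, with the row of highest mean kept for the 55 genes with several. The values of 39 genes equalled those of another gene. The values were used as deposited.

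A mean for each group was fitted over the 8 arrays by limma 3.58.1 (R 4.3.3) (4 residual and 7.27 prior degrees of freedom), two-sided, with Benjamini-Hochberg adjustment over 13003 genes whose mean was above 5.15. Differences are log2 ± standard error. The number of arrays limits the precision. Exact permutation of 2 against 2 arrays gives no p below 0.333, so none is reported. Signals under a 75th percentile over 5222 negative-control rows in every array of a group were called at background, and "at least" values use that percentile in place of the signal. The code was tested on simulated data. Up to 15 passing genes in each direction were named, without predicted genes, filled to 8 by size at an unadjusted p under 0.01, with up to 3 genes of smallest p from each of 31 lists (591 of 645 members were on the array). Not every list gene chosen by this rule is named above. Some members of the lists were singled out beyond this rule, after their values were seen. The groups were taken from the sample titles, and members and lists were chosen with earlier results of these data known. The p-values reflect only how far these samples differ among themselves, which may be technical.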

Additional observations from a re-analysis of the deposited data

Results flagged for a closer look

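The change with DSS differed between the genotypes, by the test of the difference itself, in 10 genes, a count that ran from 5 to 26 with 1 array left out in turn. Ccl5 passed in 0 of those 8 fits. The interactions above 0 were those of Ccn3 (7.19), Hsd3b3 (5.53), Aadac (5.10), Hsd3b2 (4.71), Zan (3.82) and Akr1c19 (3.03). Those below 0 were Ccl5 (-2.20), Arhgap6 (-2.60), Hsd17b13 (-2.71) and Mme (-4.62). Groups of 2 arrays are too small for a test of single samples that lie far from the rest.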

How the results depend on the processing

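No gene named by the rule changed the sign of its interaction under any of the 23 alternatives. Ccn3, Hsd3b3, Aadac, Hsd3b2 and Zan passed in 22 of 23, all except the fit without moderation, which has 4 degrees of freedom and called 0 genes in either direction (699 at an unadjusted p under 0.05). Against 10 genes in all, the count of passing genes was 14 with trend and robust moderation (8 lower), 36 with both arrays of pancreatic signal left out (10 higher and 26 lower, so mostly below 0, with 9 of the 10 among them; 2 residual degrees of freedom from the untreated arrays), 18 with the fibroblast list as a covariate (11 lower), 5 with the pancreas list as a covariate (0 lower at an adjusted p and 561 at an unadjusted p under 0.05) and 16 at an adjusted p under 0.1 (10 lower). After quantile normalization 2 genes were lower. With 1 array left out in turn the lone array of a group was assumed to vary like the others, and the count ran from 5 to 26, with 5 to 8 higher and 0 to 20 lower genes. It was 5 without WT untreated replicate 1 or 2 or WT DSS replicate 1, 26 without WT DSS replicate 2 and 18 without KO DSS replicate 2.

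With the replicate number as a block, 10 genes passed, 9 of them the same; Ccl5 was lost and Igsf23 passed (adjusted p = 0.0484). The deviations of same-numbered arrays correlated between -0.25 and 0.28 over the 6 pairs of groups. A single value for each pair of groups cannot decide whether the number pairs the samples. Setting array medians equal moved the median interaction of all genes from -0.01 to 0.02 and changed the sign of none of the 31 list medians.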
